A study of Caenorhabditis elegans with 21 samples.

Results

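Adults that had starved as newly hatched larvae and still carried eggs were set against adults that had never starved, and the difference was measured gene by gene in messenger RNA of whole animals. The fertile F4 libraries and their controls made up 6 of the 21 libraries of the series. They were the columns of the adult table labelled fertile F4 and control, and a gene entered where its normalized count averaged 10 or more over the 9 adult libraries, which left 13413 of 17720 genes. All animals were *Caenorhabditis elegans* of the wild-type strain N2, grown on OP50 bacteria at 20 °C and collected as fed adults on day 1.

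Fertile F4 animals (F4 L1starved, 3 libraries) came from a population held without food for 6 days at the first larval stage (L1) in each of 5 consecutive generations, and had been fed from that stage on in the last of them. About 1000 animals of the last larval stage were moved to fresh plates, and after 24 h those with more than 5 eggs were picked as fertile and those with no eggs as sterile. Sterile F4 animals (3 libraries) shared the plates and the starvation of the fertile ones. Controls (3 libraries) were always fed, and were likewise picked with more than 5 eggs. Each library pooled 100 adults together with the embryos inside them, so carriage of eggs was a condition of entry in both fertile groups and not a result, and the fertile animals stand only for the starved animals that passed this choice. How many embryos each animal held is not given in the sources used here, and transcripts of embryos and of the mother's own tissues cannot be told apart in these libraries. Likewise, fewer cells of a type and less RNA per cell cannot be told apart in whole animals.

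Larvae of *C. elegans* that hatch without food halt development at the L1 stage and can survive there for weeks. Insulin-like peptides act through the receptor DAF-2 and the kinases AGE-1 and AKT-1/2 to keep the FoxO transcription factor DAF-16 out of the nucleus, and low signaling in hunger frees DAF-16 to act on genes of stress resistance and metabolism. In the adult hermaphrodite the germline first makes sperm, in the last larval stage, and then switches for good to oocytes, while the epidermis has ended its molts and carries the adult cuticle. Genes of the embryonic and larval cuticle are read in embryos and larvae as each new cuticle is made, and sperm genes are normally silent by the time oocytes are made.

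The fertile F4 libraries held 14082044 to 18666332 counted reads, the sterile F4 libraries 12187063 to 22942483 and the controls 18356657 to 21455916. Fertile replicate 1 stood apart: chi-square per gene against its group was 38.1 and 33.3, against 7.1 between fertile replicates 2 and 3 and 6.6 to 9.3 among controls. Sterile replicate 1 stood apart likewise, at 31.8 and 40.8, against 11.7 between sterile replicates 2 and 3. The deviations of fertile and sterile replicate 1 from their group means correlated at 0.38. Values below are the deposited normalized counts, in replicate order. A gene was called higher or lower where limma, fitted to log2(count + 1) over the 9 adult libraries, gave a Benjamini-Hochberg adjusted p under 0.05 over all 13413 genes. The p-values measure the spread between these libraries, and log2(count + 1) understates the change of genes with few reads. The calls of the genes named below also passed under every alternative in which the gene was tested, 22 at most, unless the sentence or paragraph says otherwise.

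Of the 13413 genes, 2936 (21.9%) were called, 1323 higher (9.86%) and 1613 lower (12%) in fertile F4 animals than in controls. Counts in each gene list below are to be read against these shares of all genes. The median log2 difference over all genes was -0.11. With TMM scaling it was 0.04, and the split turned to 1821 higher (13.6%) and 764 lower (5.70%), so small differences of either sign are read below against that shift. Without fertile replicate 1 the counts were 789 higher (5.88%) and 916 lower (6.83%), and with control replicate 1 left out they were 622 higher and 383 lower. By the same fit sterile F4 animals differed from fertile ones in 10519 genes (78.4%), 5206 higher (38.8%) and 5313 lower (39.6%).

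**Figure D1:**
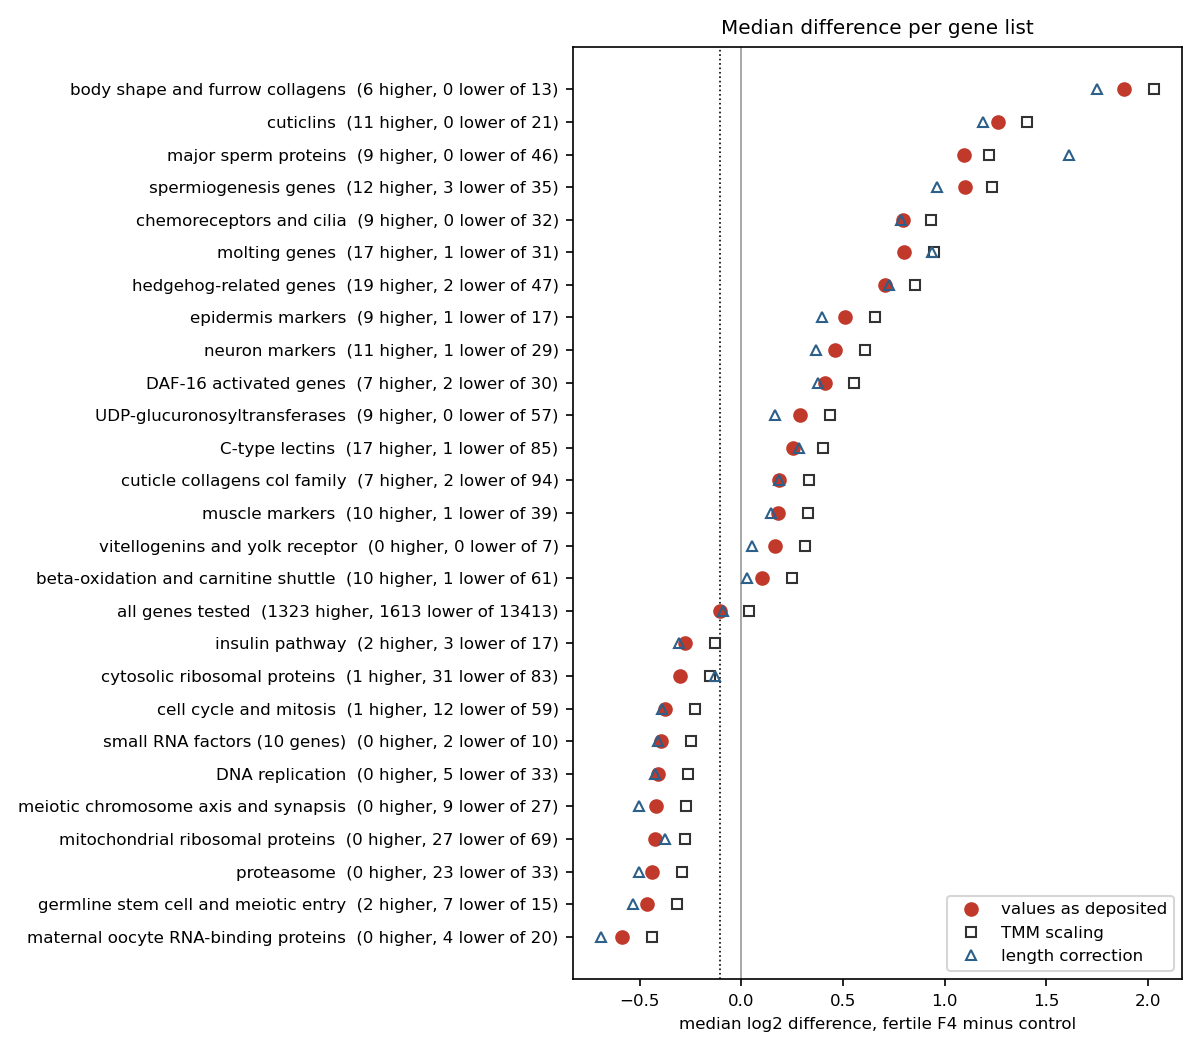
Median log2 difference, fertile F4 minus control, of the tested members of each gene list, beside the median of all genes tested (dotted line at -0.11), for the values as deposited, with TMM scaling and with a correction for gene length. Lists of the cuticle, the molt and hedgehog-related proteins lie to the right, and lists of the ribosome, the proteasome and the germline lie to the left.

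Genes that build or remodel the cuticle were higher as groups. In the list of body shape and furrow collagens 6 of 13 members were higher and none lower, with a median log2 difference of 1.88, against -0.11 over all genes. Of the molting genes 17 of 31 were higher and 1, the nuclear receptor *nhr-23* of the molting cycle, lower (median 0.80; *nhr-23* called in 20 of 22 alternatives, not without control replicate 1 or 2, adjusted p 0.00089 to 0.072), and of the cuticlins, zona pellucida proteins of the cuticle, 11 of 21 were higher and none lower (median 1.26). Without fertile replicate 1 the higher members numbered 6, 16 and 3, and single libraries left out gave 3 to 13 cuticlins, lowest without control replicate 2. The larger *col* family of cuticle collagens behaved differently, with 7 of 94 higher and 2 lower (median 0.19).

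*sqt-3*, a collagen needed for body shape, had 1365, 866 and 889 normalized counts in fertile F4 animals, against 199, 181 and 192 in controls. Every fertile library lay above every control, a log2 difference of 2.41 ± 0.23 (SE; adjusted p = 0.00047). *dpy-17*, a collagen that acts together with SQT-3, had 2107, 1499 and 1416 in fertile F4 animals and 351, 252 and 331 in controls (log2 difference 2.41 ± 0.29, adjusted p = 0.0011). The collagens of the annular furrows moved the same way: *dpy-2*, *dpy-3* and *dpy-10* were higher, with log2 differences of 2.94, 2.55 and 1.88. In sterile F4 animals *sqt-3* had 275, 149 and 212, lower than in fertile ones (sterile minus fertile -2.3 ± 0.23, adjusted p = 7.3e-06).

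*noah-1* encodes a zona pellucida protein of the matrix between epidermis and cuticle, and was one of the markers set for molting larvae. It had 3230.5, 2544 and 2641 normalized counts in fertile F4 animals and 502, 319 and 836 in sterile animals, against 705, 621 and 679 in controls. The summed level of all 5 molting-larva markers (*mlt-10*, *nas-37*, *noah-1*, *dpy-7*, *bli-1*) was 3944, 3206 and 3235 in fertile F4 animals, against 1107, 1027 and 1069 in controls, and *noah-1* was the only one of them called. *dpy-7*, another furrow collagen, had 237, 121 and 72.2 in fertile F4 animals and 44, 21.2 and 27.4 in controls and did not pass (adjusted p = 0.17). *bli-1*, a collagen of the adult cuticle, had 7.55, 8.77 and 12.604 in fertile F4 animals and 7.49, 4.55 and 10.1 in controls. The adult cuticle markers *col-19*, *rol-6* and *bli-1* together summed to between 9489 and 12119 in fertile F4 animals, against 12283 to 15336 in controls, with none called.

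Regulators and enzymes of the molt were among the strongest calls. *blmp-1*, a zinc-finger transcription factor that sets the timing of cuticle gene expression, had 509, 512 and 508 normalized counts in fertile F4 animals, against 168, 201 and 189 in controls (log2 difference 1.45 ± 0.12, adjusted p = 0.00023). The fertile values lay close together and far above every control. Sterile animals went further, at 805, 884 and 939.7 (sterile minus fertile 0.78 ± 0.12, adjusted p = 0.00014). *hbl-1*, the worm Hunchback homolog that holds larvae in early stages, had 1492, 1084 and 968 in fertile F4 animals and 373, 241 and 338 in sterile animals, against 243, 218 and 203 in controls (fertile minus control 2.39 ± 0.20, adjusted p = 0.00023). *acn-1*, an ACE-like protein without peptidase activity that is needed to molt, had 524, 404 and 283 in fertile F4 animals, against 77.7, 57.6 and 77.8 in controls. *mlt-11*, a secreted protein with protease inhibitor domains, had 2574, 1871 and 1743 in fertile F4 animals, against 462, 331 and 334 in controls. *mlt-8* and *mlt-9*, both required to shed the old cuticle, were higher, with log2 differences of 2.24 and 3.17. *sym-1*, a secreted leucine-rich repeat protein of the embryonic matrix, was higher, with a log2 difference of 1.59 ± 0.20.

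Hedgehog-related genes, a large family in worms whose secreted and Patched-like members serve mostly in the cuticle, were higher in 19 of 47 cases and lower in 2 (median 0.71; 12 to 22 higher with any 1 library left out). *F43D9.1*, named *ptr-25* in the reference annotation and Patched-related, had 619, 436 and 378 normalized counts in fertile F4 animals, against 85.2, 57.6 and 59.8 in controls (log2 difference 2.79 ± 0.23, adjusted p = 0.00023). *ptr-4*, a Patched-related protein needed for molting, had 326, 218 and 199 in fertile F4 animals, against 47.8, 31.8 and 26.7 in controls. *wrt-1*, a secreted hedgehog-related protein of the warthog group, had 108, 58.8 and 76.8 in fertile F4 animals, against 9.36, 4.55 and 10.1 in controls. *ptc-3*, 1 of the Patched homologs, was higher, with a log2 difference of 0.88 ± 0.13, and higher again in sterile animals (sterile minus fertile 0.99 ± 0.13).

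*hch-1* encodes the astacin protease that digests the eggshell at hatching. It had 567, 393 and 378 normalized counts in fertile F4 animals and 30.6, 22.2 and 54.8 in sterile animals, which carried no eggs, against 84.3, 93.2 and 89.4 in controls (fertile minus control 2.29 ± 0.29, adjusted p = 0.0013). Genes first read in early embryos did not follow as a group: 3 of 22 were higher and none lower (median -0.13). The early embryo markers *pes-10*, *end-1*, *end-3*, *tbx-37* and *sdz-38* summed to 178, 150 and 227 in fertile F4 animals, against 289, 224 and 257 in controls. *end-1*, which specifies the gut, had 22.7, 21.9 and 18.3 in fertile F4 animals, against 17.8, 14.4 and 28.8 in controls, values that overlap. *pha-4*, the FoxA factor of the pharynx, was higher, with a log2 difference of 0.73 ± 0.18 (called in 19 of 22 alternatives, not without control replicate 1 or 2 or fertile replicate 1, adjusted p 0.00099 to 0.073).

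Genes of the epidermis list were higher in part, with 9 of 17 higher and 1, the epidermal fate factor *lin-26*, lower (median 0.51; *lin-26* called in 12 of 22 alternatives, not without control replicate 1, 2 or 3 or fertile replicate 1, 2 or 3, adjusted p 0.0034 to 0.16). The 3 epidermis markers *dpy-7*, *col-19* and *lin-26* did not share it: they summed to 10989.8, 13113 and 13467 in fertile F4 animals, against 14189.5, 17128 and 13940.1 in controls, with *lin-26* lower and none higher. *ifa-3*, an intermediate filament of the epidermis, had 285, 177 and 176 normalized counts in fertile F4 animals, against 28.1, 27.3 and 18 in controls. *ajm-1* and *dlg-1*, components of the apical junction between epithelial cells, were higher, with log2 differences of 0.74 ± 0.10 and 0.87 ± 0.12. *let-805* and *mup-4*, matrix receptors that tie muscle to cuticle through the epidermis, were higher, with log2 differences of 0.60 ± 0.11 and 0.51 ± 0.10. *jmjd-3.1*, a demethylase that removes a repressive histone mark, had 543, 462 and 487 in fertile F4 animals, against 211, 168 and 207 in controls, and *cki-1*, an inhibitor of cyclin-dependent kinases that halts dividing cells, had 112.5, 91.3 and 99.7 in fertile F4 animals, against 42.1, 34.1 and 41.8 in controls.

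**Figure D2:**
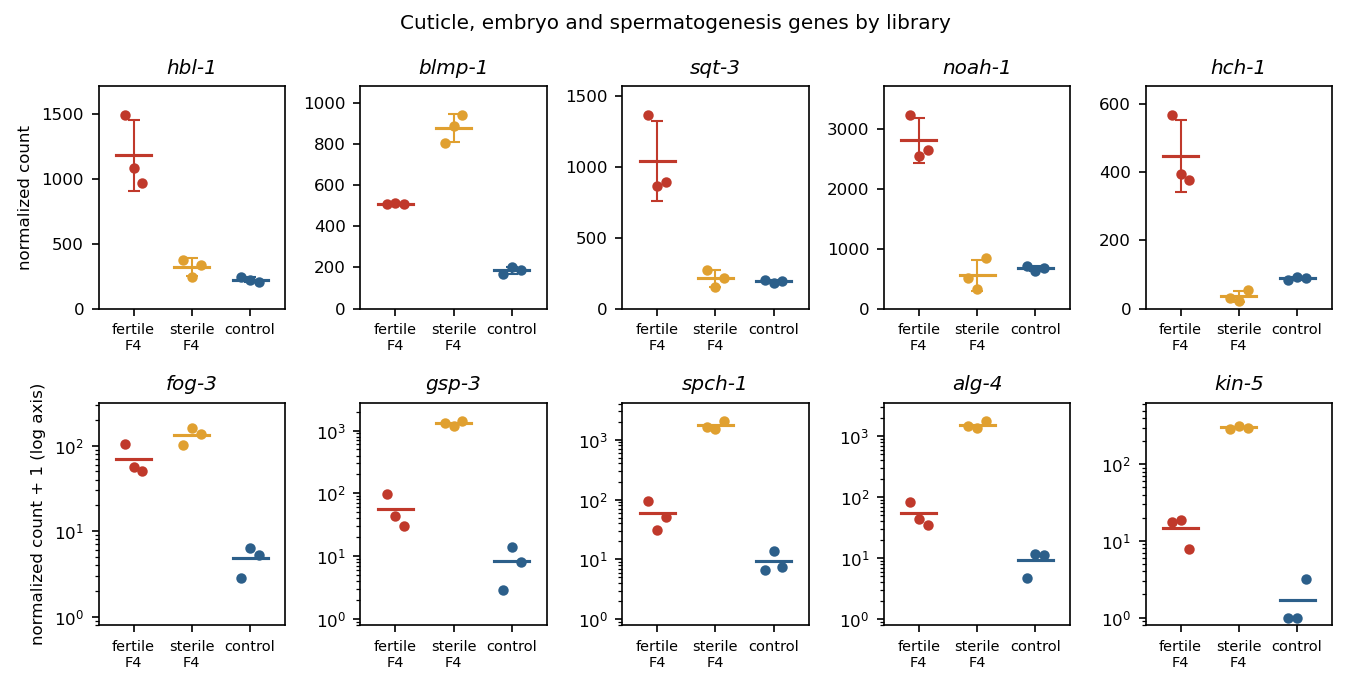
Normalized counts of 5 genes of the cuticle and embryo (upper row, linear axes, mean and SD) and 5 genes read during sperm formation (lower row, count plus 1 on log axes, mean) in the 3 fertile F4, 3 sterile F4 and 3 control libraries. In the upper row the fertile libraries lie above every control, and in the lower row they lie between the controls and the sterile animals or, for fog-3, near the sterile ones.

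Genes of sperm formation were higher in fertile F4 animals, from very low levels. *fog-3*, which commits germ cells to become sperm, had 103, 55.3 and 49.3 normalized counts in fertile F4 animals, against 1.87, 5.30 and 4.32 in controls, a log2 difference of 3.86 ± 0.39 (adjusted p = 0.00054). Its partner *fog-1* had 833, 627 and 679 in fertile F4 animals and 544, 477 and 423 in controls (called in 15 of 22 alternatives, not without control replicate 1, 2 or 3 or fertile replicate 1 or 3, adjusted p 0.0037 to 0.099). Of the spermiogenesis genes 12 of 35 were higher and 3 lower (median 1.1). Of the major sperm protein family, the cytoskeletal and signaling proteins of nematode sperm, 9 of 46 were higher and none lower (median 1.09). Members of that family are near-identical copies, so reads may be split or lost between them and single members are uncertain.

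The size of this rise depended on fertile replicate 1. The summed sperm markers (*msp* genes, *spe-9*, *gsp-3*, *gsp-4*) were 1500, 541 and 354 in fertile F4 animals, against 110, 435 and 342 in controls, so that fertile replicate 3 lay within the range of the controls and control replicate 1 stood far below its group. Without fertile replicate 1 the higher members numbered 6 spermiogenesis genes and 1 major sperm protein gene. With control replicate 1 left out, 4 spermiogenesis genes stayed higher. Markers of the male body (*lov-1*, *pkd-2* and 5 others, set after these values were seen) summed to 50.4, 21.9 and 29.8 in fertile F4 animals, against 33.7, 28.8 and 23.8 in controls, values that overlap. In sterile animals the sperm markers summed to between 16174 and 20671, and all 46 tested major sperm protein genes were higher there than in fertile F4 animals.

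Several sperm genes were called in every alternative, with an exception marked below. *gsp-3*, a protein phosphatase of sperm, had 95.7, 43 and 28.6 normalized counts in fertile F4 animals, against 1.87, 12.9 and 7.21 in controls (log2 difference 2.86 ± 0.52, adjusted p = 0.005). *spch-1* and *spch-3*, small basic proteins of sperm chromatin, were higher, with log2 differences of 2.58 ± 0.39 and 2.42 ± 0.35. *F32A11.3*, named *spe-18* in the reference and needed to assemble sperm organelles, had 118, 61.4 and 48.1 in fertile F4 animals, against 5.62, 10.6 and 13 in controls. *alg-4*, an Argonaute of the small RNA pathway of spermatogenesis, had 82.3, 42.1 and 34.4 in fertile F4 animals, against 3.75, 10.6 and 10.1 in controls (log2 difference 2.57 ± 0.38, adjusted p = 0.002). *alg-3*, which acts in the same pathway, had 99.9, 39.5 and 20.6 in fertile F4 animals, against 2.81, 11.4 and 12.3 in controls (called in 21 of 22 alternatives, not without control replicate 1, adjusted p 0.0016 to 0.051). *pfk-1.2*, a phosphofructokinase of the male germline, had 27.7, 10.5 and 9.17 in fertile F4 animals, against 0.936, 1.52 and 4.32 in controls.

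Of the 12 genes with the largest rise among those with a mean of at least 50 normalized counts and no overlap with controls, most were low in controls and far higher in sterile animals. *kin-5*, predicted to encode a tyrosine kinase, had 16.8, 17.5 and 6.88 normalized counts in fertile F4 animals and 289.6, 317 and 292 in sterile animals, against 0, 0 and 2.16 in controls, and *Y57G11A.2* had 169, 60.5 and 66.5 in fertile F4 animals and 1911, 1919 and 2450.0 in sterile animals, against 0, 11.4 and 15.1 in controls. The same order held for *lact-6*, *dct-8*, *Y69A2AR.19*, *R09E10.6*, *F56B3.6*, *Y69E1A.1* and *R09E10.2*, of which *Y69A2AR.19* was called in 20 of 22 alternatives, not without fertile replicate 1, adjusted p 0.006 to 0.068. *pqn-73*, a glutamine-rich protein, was lower in sterile than in fertile animals, though above controls: it had 259, 118 and 128 in fertile F4 animals and 77.0, 54 and 18.5 in sterile animals, against 15, 9.85 and 16.6 in controls. The collagen gene *col-165* had 409, 118 and 173 in fertile F4 animals, against 28.1, 12.1 and 15.1 in controls (called in 15 of 22 alternatives, not without control replicate 1, 2 or 3 or fertile replicate 1, 2 or 3, adjusted p 0.00019 to 0.13).

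Oocyte and germline lists lay lower by a small step at the median. Over the maternal RNA-binding proteins of oocytes the median log2 difference was -0.59, over germline stem cell and meiotic entry genes -0.46, over synapsis genes -0.42 and over P granule genes -0.46. The lower shares were 20%, 46.7%, 33.3% and 13.3%, against 12% of all genes, so the P granule share lay near that of all genes. The counts called lower were 4 of 20, 7 of 15, 9 of 27 and 2 of 15, and only the stem cell list had higher members, 2 (*fog-1* and *fog-3*). These counts moved widely with the libraries: without fertile replicate 1 they were 1, 1, 2 and 1, and without sterile replicate 1 they were 20, 12, 21 and 12. With only the 6 libraries compared they were 19, 12, 23 and 13. With TMM scaling the medians were -0.44, -0.31, -0.27 and -0.31, and 1, 3, 5 and 1 were called lower, where 5.70% of all genes were.

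The summed oocyte markers (*oma-1*, *oma-2*, *rme-2*, *puf-5*, *cpg-1*) were 58900, 69629 and 73242 in fertile F4 animals, against 106450, 94715 and 92149 in controls. *glp-1*, the Notch receptor that keeps germline stem cells dividing, had 4509, 5852 and 5722 normalized counts in fertile F4 animals and 8001, 7054 and 6995 in controls, groups that do not overlap but whose difference did not pass (adjusted p = 0.1). *gld-2*, a cytoplasmic poly(A) polymerase that promotes entry into meiosis, had 3268, 3558 and 3958 in fertile F4 animals, against 5551, 5179 and 5293 in controls (log2 difference -0.57 ± 0.12, adjusted p = 0.0097). *zhp-3*, a protein of crossover sites, had 575, 629 and 574 in fertile F4 animals, against 1069, 993 and 905 in controls (log2 difference -0.74 ± 0.14, adjusted p = 0.0062). *ife-1*, a cap-binding translation factor of P granules, was lower, with a log2 difference of -0.60 ± 0.11. *daz-1*, an RNA-binding protein needed for oocytes, was lower, with a log2 difference of -0.75 ± 0.18 (called in 19 of 22 alternatives, not without control replicate 1 or 2, adjusted p 0.00036 to 0.078). *spn-4*, a maternal RNA-binding protein of the early embryo, had 7459.7, 7903 and 7592 in fertile F4 animals, against 15252, 13731 and 12535 in controls (called in 14 of 22 alternatives, not without control replicate 1, 2 or 3 or fertile replicate 1, 2 or 3, adjusted p 0.00019 to 0.14).

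Genes of cell division leaned the same way. Of the cell cycle genes 12 of 59 were lower and 1, *cki-1*, was higher (median -0.38; 1 to 38 lower with single libraries left out, fewest without control replicate 1 and most without sterile replicate 1). The lower share was 20.3%, against 12% of all genes, and 4 were lower with TMM scaling, where 5.70% of all genes were. *cyb-2.2*, a B-type cyclin, had 1909, 1854 and 1895 normalized counts in fertile F4 animals, against 3736, 3224 and 3087 in controls (log2 difference -0.82 ± 0.17, adjusted p = 0.0082). *air-2*, the Aurora B kinase, was lower, with a log2 difference of -0.59 ± 0.13 in fertile F4 animals (called in 21 of 22 alternatives, not without control replicate 1, adjusted p 0.00011 to 0.055). All 33 DNA replication genes had values that did not overlap between the groups, against 51.1% of all genes, but 5 were called lower (median -0.41), with a wide range by setting: none with TMM scaling or without fertile replicate 1, and 32 with only the 6 libraries compared or without sterile replicate 1.

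Histone genes were lower in 10 of 42 cases and higher in none (median -0.18; 5 to 13 lower with single libraries left out, fewest without control replicate 1). The lower share was 23.8%, against 12% of all genes. *his-64* had 12689, 7376 and 7401 normalized counts in fertile F4 animals, against 21494, 18844 and 19294 in controls. *hil-5*, a linker histone, had 2214, 2605 and 2693 in fertile F4 animals, against 4959.6, 4465 and 4583 in controls (log2 difference -0.90 ± 0.17, adjusted p = 0.0063). Many histone genes are copies of each other and their reads may be split, and they are short (median exon length 411 bases), as are those of the next group.

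Ribosomal protein genes and other short genes were lower, and gene length moved with the difference. In the shortest of 10 equal bins of genes, with up to 579 exon bases, 298 were lower and 41 higher, with a median log2 difference of -0.35, against 59 lower and 293 higher and a median of 0.01 in the longest bin. The median deviation of that shortest bin from the mean of all libraries was 0.09, -0.33 and -0.44 in fertile replicates 1, 2 and 3, against 0.10 to 0.15 in controls, so the short genes were low in fertile replicates 2 and 3 and not in replicate 1. The median exon length was 1885 bases for genes called higher and 1066 for those called lower, against 1411 for all. When each library was corrected for its own trend with length, an alternative chosen after seeing the data, 1373 genes were higher (10.2%) and 2119 lower (15.8%). The part of gene length in the differences was not tested.

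**Figure D3:**
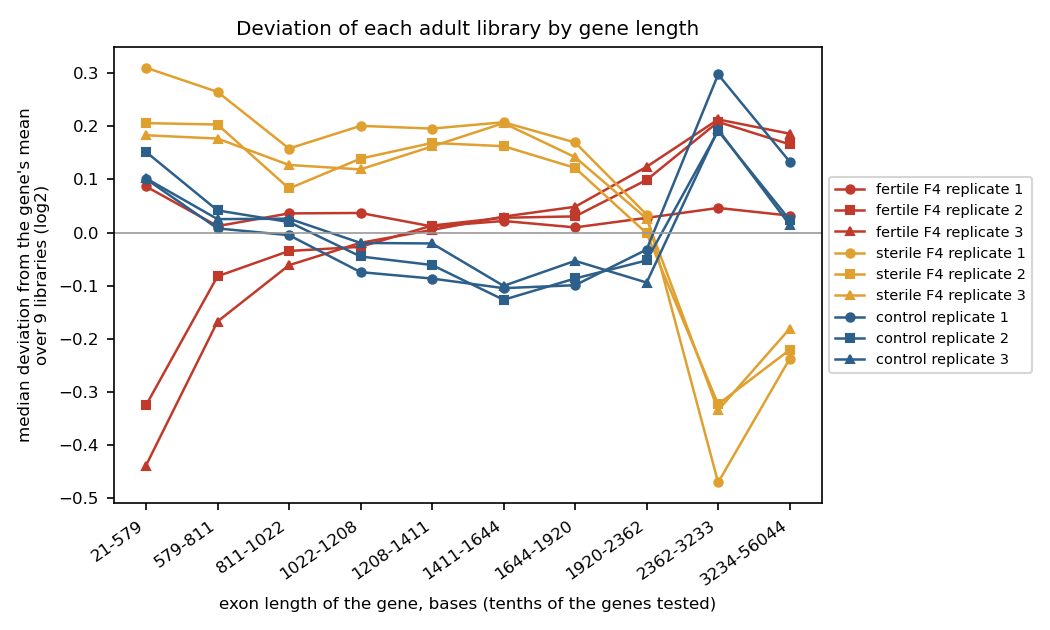
Median deviation (log2) of each of the 9 adult libraries from the mean of all 9, over 10 equal bins of the genes ordered by exon length in bases. In the shortest bin fertile replicates 2 and 3 lie at -0.33 and -0.44, and fertile replicate 1 lies with the controls at 0.09.

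Of the cytosolic ribosomal protein genes 31 of 83 were lower and 1 higher (median -0.30), and with the length correction 15 were lower and 2 higher (median -0.13). Single libraries left out gave 19 to 46 lower, and 7 to 41 of the mitochondrial ones below, in both lists fewest without control replicate 1. For histones that correction left 4 lower and turned 10 higher. *rpl-30*, a protein of the large subunit, had 2842, 2237 and 2169 normalized counts in fertile F4 animals, against 4476, 4530.0 and 3922 in controls, and stayed lower after the correction (-0.61, adjusted p = 0.0039). *rpl-41.2*, whose product is the smallest ribosomal protein, had 4812, 1724 and 1283 in fertile F4 animals, against 10759, 8875 and 8586 in controls. Its near copy *rpl-41.1* was lower too, with a log2 difference of -1.42 ± 0.29, and reads of the pair may be split. *rps-28* of the small subunit was lower, with a log2 difference of -0.91 ± 0.14, and no longer called with the length correction (adjusted p = 0.059).

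Mitochondrial ribosomal proteins were lower in 27 of 69 cases and higher in none (median -0.43; 19 lower with the length correction). *mrpl-51*, of the large subunit, had 653, 554 and 608 normalized counts in fertile F4 animals, against 1251, 1199 and 1231 in controls (log2 difference -1.02 ± 0.13, adjusted p = 0.0014; -0.90 with the correction). Of the respiratory chain and ATP synthase genes 8 of 41 were lower and 2 higher. *asg-1*, a subunit of ATP synthase, had 527, 485 and 481 in fertile F4 animals, against 840.0, 767 and 745 in controls.

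The proteasome, the protease complex that degrades ubiquitin-tagged proteins, was lowered evenly. 23 of its 33 genes were lower and none higher (median -0.44), and all 33 had values that did not overlap between the groups, against 51.1% of all genes. With the length correction 26 were lower (median -0.51). Leaving out single libraries gave between 9 and 33 lower, fewest without control replicate 1 and most without sterile replicate 1, and TMM scaling 13. *pbs-4*, a subunit of the proteolytic core, had 1204, 1188 and 1084 normalized counts in fertile F4 animals, against 2119, 1893 and 1950.1 in controls (log2 difference -0.78 ± 0.10, adjusted p = 0.0014). *rpt-5*, an ATPase of the regulatory cap, had 2942, 3259.6 and 2988 in fertile F4 animals, against 5329, 4661 and 4616 in controls (log2 difference -0.67 ± 0.12, adjusted p = 0.0048).

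Among the 12 genes with the largest fall, within the same limits, were several with short transcripts. *F23A7.8* had 118, 23.7 and 26.4 normalized counts in fertile F4 animals, against 479, 272.0 and 234.9 in controls, and *F23A7.4* had 306, 69.3 and 64.2 in fertile F4 animals, against 1016, 692 and 502 in controls. *ubl-5*, a ubiquitin-like protein of the mitochondrial stress response, had 281, 93.0 and 96.3 in fertile F4 animals, against 625, 502 and 596 in controls. In each of these 3 genes fertile replicate 1 was the highest of its group. *gba-4*, a glucosylceramidase homolog, had 201, 64.1 and 65.3 in fertile F4 animals, against 320.3, 391.7 and 457 in controls. *lipl-5*, a lysosomal lipase, had 630.3, 345 and 243 in fertile F4 animals, against 1137, 1669.9 and 1749.7 in controls (log2 difference -1.99 ± 0.45, adjusted p = 0.012). The others were *B0412.7*, *ZK858.10*, *C17F4.7*, *F58D5.11*, *rpl-41.2* and 2 entries annotated as piRNA genes, *21ur-12756* and *21ur-14724*, whose 21 annotated bases are fewer than the 75 bases of a read. The call of *21ur-12756* held in 21 of 22 alternatives, not without control replicate 1, adjusted p 0.00075 to 0.05. The call of *21ur-14724* held in 19 of 22 alternatives, not without control replicate 1 or 2, adjusted p 0.0039 to 0.094, that of *C17F4.7* in 14 of 22 alternatives, not without control replicate 1, 2 or 3 or fertile replicate 2 or 3, adjusted p 0.003 to 0.077 and that of *F58D5.11* in 15 of 22 alternatives, not without control replicate 1 or 2 or fertile replicate 2 or 3, adjusted p 0.0004 to 0.069.

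Few insulin signaling components were called, and those went in both directions. Of the 17 pathway genes 2 were higher and 3 lower (median -0.28), and without fertile replicate 1 none was higher and 1 lower. The shares were 11.8% higher and 17.6% lower, against 9.86% and 12% of all genes. With only the 6 libraries compared 2 were higher and 7 lower, where 1679 and 3332 of all 13413 genes were. Values did not overlap between the groups in 13 of the 17, against 51.1% of all genes. *daf-2*, the receptor, had 3939.7, 4726 and 4616 normalized counts in fertile F4 animals and 5329, 4826 and 4916 in controls (adjusted p = 0.2). *daf-16*, the FoxO factor, had 2470.1, 2295 and 2263 in fertile F4 animals and 3076, 2764 and 2684 in controls (adjusted p = 0.091). Neither passed the test, though with the length correction *daf-2* was called lower (-0.30, adjusted p = 0.026). *daf-16* was called lower in 2 of 22 alternatives (lowest adjusted p 0.034).

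The Akt kinases differed in opposite directions. *akt-1* had 2426, 2604 and 2519.8 normalized counts in fertile F4 animals, against 3947, 3508 and 3529 in controls (log2 difference -0.54 ± 0.099, adjusted p = 0.0051). *akt-2* had 193, 129 and 162 in fertile F4 animals, against 97.4, 75.8 and 118.9 in controls (log2 difference 0.73 ± 0.21, adjusted p = 0.033), and was called in 17 of 22 alternatives, not without control replicate 1 or 2 or fertile replicate 1 or 3, adjusted p 0.0082 to 0.13. *ist-1*, an insulin receptor substrate homolog, had 179, 182 and 175 in fertile F4 animals, against 97.4, 129.6 and 123 in controls (called in 19 of 22 alternatives, not without control replicate 1 or fertile replicate 1 or 2, adjusted p 0.005 to 0.1). *aap-1*, the adaptor of the PI3 kinase, was lower, with a log2 difference of -0.49 ± 0.13 (called in 13 of 22 alternatives, not without control replicate 1, 2 or 3 or fertile replicate 1, 2 or 3, adjusted p 0.0026 to 0.11). In sterile animals *akt-1* was lower still and *akt-2* higher still than in fertile ones (sterile minus fertile -0.63 ± 0.099 and 1.42 ± 0.21).

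Known targets that DAF-16 activates were higher in 7 of 30 cases and lower in 2 (median 0.41), with 3 to 12 higher when single libraries were left out, fewest without control replicate 1. The shares were 23.3% higher and 6.67% lower, against 9.86% and 12% of all genes. Without fertile replicate 1 the list was split evenly, 4 higher and 4 lower (median 0.30). *lea-1*, a protein that protects against drying, had 10458, 10259.5 and 10994 normalized counts in fertile F4 animals, against 5931, 5507 and 5421 in controls, a log2 difference of 0.91 ± 0.091 (adjusted p = 0.00054). *dao-3*, an enzyme of one-carbon metabolism, had 389, 455 and 501 in fertile F4 animals, against 281, 242 and 267 in controls (log2 difference 0.76 ± 0.13, adjusted p = 0.0044). The best known reporters of DAF-16 did not pass: *sod-3*, the mitochondrial superoxide dismutase, had 63.8, 62.3 and 24.1 in fertile F4 animals and 29.97, 37.1 and 44.7 in controls. *mtl-1*, a metallothionein, had 47, 27.2 and 4.58 in fertile F4 animals and 8.43, 15.9 and 18 in controls. In both genes the groups overlap (adjusted p = 0.57 for *sod-3* and 0.72 for *mtl-1*). *sip-1*, a small heat shock protein of embryos, was lower, with a log2 difference of -0.56 ± 0.12 (called in 21 of 22 alternatives, not without control replicate 1, adjusted p 0.00038 to 0.051).

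**Figure D4:**
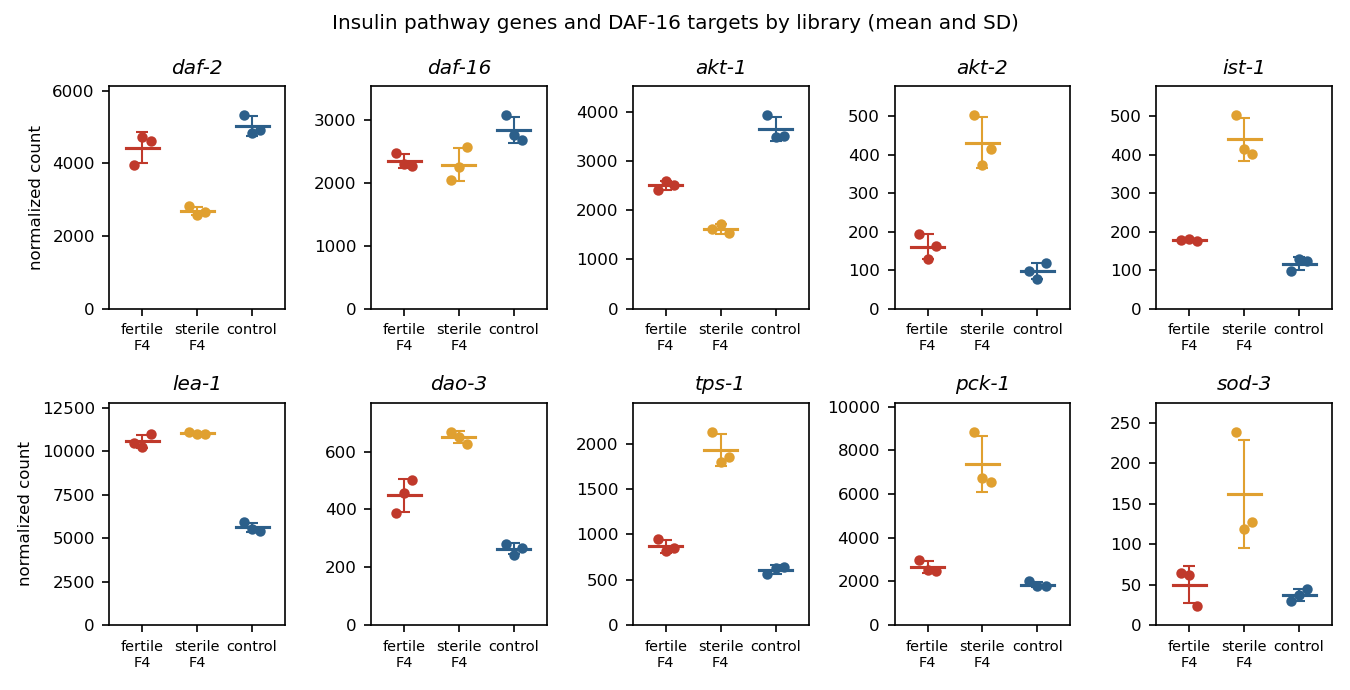
Normalized counts of 5 insulin pathway genes (upper row) and 5 known targets activated by DAF-16 (lower row) in the 3 fertile F4, 3 sterile F4 and 3 control libraries, with mean and SD. akt-1 and akt-2 differ from controls in opposite directions, lea-1 and dao-3 lie above every control, and sod-3 overlaps with the controls.

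Beyond insulin, dauer signaling and the energy sensors gave few calls. Of the TGF-beta and steroid genes of the dauer decision 1 of 15 was higher and 2 lower, of the serotonin genes none of 12, and of the AMPK and TOR genes 1 of 19 was lower. That gene was *ragc-1*, a Rag GTPase that recruits TORC1, with 1631, 1877 and 1875 normalized counts in fertile F4 animals, against 3007, 2491 and 2455 in controls (called in 21 of 22 alternatives, not without control replicate 1, adjusted p 0.0012 to 0.078). *cat-4*, the enzyme that makes the cofactor of serotonin and dopamine synthesis, had the smallest p of its list, with 639.5, 443 and 528 in fertile F4 animals and 816, 890.2 and 666 in controls (adjusted p = 0.069). With TMM scaling 4 dauer and 2 serotonin genes were higher and none lower, where 13.6% of all genes were higher. Of the AMPK and TOR genes 7 were lower with the length correction, where 15.8% of all genes were, and 5 with only the 6 libraries compared.

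The study tabulated target genes of these pathways. Its class 1 insulin targets, picked on L1 libraries, had 43 members tested here, of which 8 were higher and 3 lower in fertile F4 animals (median 0.28). Of a second larval table of class 2 targets, 4 of 27 were higher and 4 lower (median -0.19). The tables drawn from the adult libraries themselves gave 201 higher and 51 lower of 298 DAF-16 class 1 genes, 271 and 20 of 325 TGF-beta genes, 111 and 10 of 148 serotonin genes, and 9 and 127 of 147 genes that fall when AMPK is lost. These 4 were chosen on these samples and are no independent evidence of a direction.

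Lipid and energy metabolism held a few strong calls. *fasn-1*, the fatty acid synthase, had 17386, 17988 and 16734 normalized counts in fertile F4 animals, against 10744, 10546 and 9859 in controls (log2 difference 0.74 ± 0.11, adjusted p = 0.0018). Among the elongases, *elo-5*, which makes branched-chain fatty acids, had 1862, 1383 and 1643 in fertile F4 animals, against 2857, 2992 and 2719.7 in controls (log2 difference -0.82 ± 0.16), and *elo-2*, which acts on palmitate, was lower, with a log2 difference of -0.71 ± 0.15. Of the 24 genes of this list 3 were higher and 4 lower (median 0.056). Of the genes of beta-oxidation and the carnitine shuttle 10 of 61 were higher and 1 lower (4 to 12 higher with single libraries left out, fewest without control replicate 1). *cpt-4*, a carnitine palmitoyltransferase, had 179.6, 208 and 146 in fertile F4 animals, against 24.3, 35.6 and 47.6 in controls, and was lower in sterile animals than in fertile ones (sterile minus fertile -1.03 ± 0.26). The acyl-CoA genes *acs-10*, *acdh-8* and *acs-18* were higher in fertile F4 animals, with under 60 normalized counts in each fertile library, and were higher again in sterile animals (sterile minus fertile 4.38 ± 0.50, 4.47 ± 0.48 and 4.49 ± 0.61).

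The 5 lipid genes that the study singled out came from another comparison, of F4+3 and control animals at the L1 stage, and their adult values here are a look-up in other groups at another stage. They did not pass in adults: *dif-1*, a mitochondrial carrier, *dhs-6*, a dehydrogenase, *abhd-3.2*, *C31H2.4* and *B0272.4* had log2 differences of -0.16, -0.19, -0.39, 0.23 and 0.30 (adjusted p 0.25, 0.23, 0.096, 0.59 and 0.4). *lbp-9*, a fatty acid binding protein, was lower, with a log2 difference of -0.71 ± 0.13, and *lid-1*, a lipid droplet protein that aids lipolysis, was lower as well (-0.61 ± 0.12). None of the 7 yolk genes was called. *vit-2*, which encodes yolk protein, had 599186, 498061 and 517076 normalized counts in fertile F4 animals and 475153, 453110.0 and 399676 in controls (adjusted p = 0.27). Yolk transcripts took 11.1% to 14.1% of the reads in fertile F4 animals, against 9.25% to 10.3% in controls.

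In one-carbon metabolism 4 of 20 genes were higher (20%, against 9.86% of all genes) and 1 lower. *asns-2*, an asparagine synthetase, had 1721, 1518 and 1262 normalized counts in fertile F4 animals, against 512, 496 and 607 in controls (log2 difference 1.47 ± 0.16, adjusted p = 0.0009). *sams-5*, an S-adenosylmethionine synthetase, had 111.6, 70.2 and 68.8 in fertile F4 animals, against 23.4, 45.5 and 32.4 in controls. Of the sugar enzymes *tps-2*, which makes trehalose, had 1580.4, 1429 and 1268 in fertile F4 animals, against 737, 949 and 1082 in controls (called in 21 of 22 alternatives, not without control replicate 1, adjusted p 0.00084 to 0.064). *mdh-2*, a malate dehydrogenase, was lower, with a log2 difference of -0.45 ± 0.096. Of the autophagy genes 6 of 26 were lower and 1 higher, with *lgg-3*, an ATG12 homolog, at 383, 309.7 and 297 in fertile F4 animals, against 730.5, 699 and 651 in controls. Chaperones were lower in 11 of 54 cases and higher in 1 (1 to 23 lower with single libraries left out, fewest without control replicate 1), and antioxidant enzymes in 5 and 1 of 16. The lower shares were 23.1%, 20.4% and 31.25% for autophagy, chaperone and antioxidant genes, against 12% of all genes. With TMM scaling 3, 4 and 2 of them were lower, where 5.70% of all genes were. *prdx-2*, a peroxiredoxin, had 4755, 4400.2 and 4405 in fertile F4 animals, against 7211, 6191 and 6428 in controls.

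Small RNA factors were slightly lower, most without passing. The 10 factors that the study named had a median of -0.40, with 2 called lower (20%, against 12% of all genes) and none higher. The lower count was 1 without control replicate 1 or fertile replicate 1, and 8 without sterile replicate 1. It was 8 with only the 6 libraries compared, 5 with the length correction and 1 with TMM scaling. These counts are no independent evidence of a direction. The study took the factors from an earlier list of insulin targets that do not need DAF-16, and described some of them in these same libraries. *mut-16*, the scaffold of Mutator foci where secondary small RNAs are made, had 3545, 3939 and 3934 normalized counts in fertile F4 animals, against 6266, 5667 and 5393 in controls (log2 difference -0.60 ± 0.12, adjusted p = 0.0081). *nrde-4*, of the nuclear RNA interference pathway, had 1540.1, 1866 and 1935 in fertile F4 animals, against 2614, 2400.3 and 2498 in controls (called in 14 of 22 alternatives, not without control replicate 1, 2 or 3 or fertile replicate 1 or 2, adjusted p 0.0035 to 0.11). *hrde-1*, the nuclear Argonaute of germline inheritance, had 11093, 14493 and 13424 in fertile F4 animals and 18895, 17553 and 14662 in controls (adjusted p = 0.16). *sago-2*, *rrf-1*, *rde-4*, *nrde-2*, *mut-14*, *drh-3* and *dcr-1* lay between -0.42 and -0.089 with adjusted p of 0.051 and above. *nrde-2* turned to 0.059 with TMM scaling.

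Of 21 Argonautes, the proteins that bind small RNAs, 5 were higher and 3 lower. The spermatogenesis Argonautes *alg-3*, *alg-4* and *wago-10* were higher along with *alg-1* and *sago-1*, chosen here after their values were seen, and *csr-1*, which marks genes for expression in the germline, *prg-2*, a PIWI homolog, and *ppw-1* were lower. *wago-10* had 49.5, 4.39 and 13.8 normalized counts in fertile F4 animals, against 1.87, 2.27 and 0.721 in controls. *csr-1* had 5095, 6186 and 6067 in fertile F4 animals, against 8631, 7846 and 7588 in controls. The call of *wago-10* held in 21 of 22 alternatives, not without control replicate 3, adjusted p 0.0013 to 0.054, that of *csr-1* in 16 of 22 alternatives, not without control replicate 1 or 2 or fertile replicate 1, adjusted p 0.0045 to 0.1 and that of *prg-2* in 14 of 22 alternatives, not without control replicate 1, 2 or 3 or fertile replicate 1 or 2, adjusted p 0.0011 to 0.098. *alg-1*, *sago-1* and *ppw-1* were called in 13 of 22, 15 of 22 and 13 of 22 alternatives. Of the histone methylation genes of inheritance 3 of 21 were lower and 1 higher. *wdr-5.1*, a core subunit of the H3K4 methyltransferase, had 1073, 1166 and 1163 in fertile F4 animals, against 1804, 1691 and 1607 in controls (called in 20 of 22 alternatives, not without control replicate 1 or 2, adjusted p 0.00068 to 0.075).

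Differentiated tissues differed among themselves. Of the wider neuron list 11 of 29 were higher and 1 lower (median 0.46), and of the cilia and chemoreceptor genes 9 of 32 were higher and none lower (median 0.80). *tbb-4*, a tubulin of sensory cilia, had 84.8, 81.6 and 75.6 normalized counts in fertile F4 animals, against 16.9, 19.7 and 20.2 in controls (log2 difference 2.04 ± 0.24, adjusted p = 0.0011). *dyf-7*, which anchors growing sensory dendrites in the embryo, had 102, 80.7 and 80.2 in fertile F4 animals, against 21.5, 16.7 and 18.7 in controls. *unc-13*, a synaptic vesicle priming factor, was higher, with a log2 difference of 0.58 ± 0.11, while *snb-1*, synaptobrevin, was lower, with a log2 difference of -0.58 ± 0.11. Of the muscle markers 10 of 39 were higher and 1 lower, with *pat-2*, an integrin alpha subunit, at 1541, 1550.4 and 1389.9 in fertile F4 animals, against 910.3, 1039.5 and 1046 in controls. The higher shares of the neuron, cilia and muscle lists were 37.9%, 28.1% and 25.6%, against 9.86% of all genes. With single libraries left out, 5 to 12 neuron, 3 to 9 cilia and 1 to 13 muscle genes were higher, in each list fewest without control replicate 1. No marker of a tissue was at 0 in every library. The smaller set of neuron markers (*rab-3*, *unc-119*, *rgef-1*, *snb-1*) went against the wider list: it summed to 1120.5, 1076 and 1066 in fertile F4 animals, against 1559, 1463 and 1332 in controls, with *snb-1* lower and none higher. The muscle markers *myo-3*, *unc-54* and *unc-15* summed to 97055 to 116601 in fertile F4 animals, against 85589 to 93095 in controls, and the intestine markers (*elt-2*, *ges-1*, *pho-1*, *vit-2*, *act-5*) to 504129 to 606901 in fertile F4 animals, against 406535 to 482006 in controls, with none of these genes called. Of the wider intestine list 1 of 19 was lower and none higher, and of the neuropeptides 1 of 57 was lower and none higher.

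Defense and detoxification lists differed in how many members were higher, against 9.86% of all genes. C-type lectins, secreted sugar-binding proteins, were higher in 17 of 85 cases and lower in 1. *clec-78* had 1159, 857 and 806 normalized counts in fertile F4 animals and 138, 36.5 and 89.2 in sterile animals, against 135, 128 and 88.6 in controls, so that it was lower in sterile than in fertile animals (sterile minus fertile -3.58 ± 0.38) and the sterile and control values overlap. *clec-180* had 89, 64.9 and 59.6 in fertile F4 animals, against 7.49, 5.30 and 10.8 in controls. Of the UDP-glucuronosyltransferases 9 of 57 were higher, of the cytochrome P450 genes 5 of 53, and of the transthyretin-related genes 7 of 49, each with none lower. The P450 share, 9.43%, was close to that of all genes. Lysozymes and antimicrobial effectors had 4 higher and 3 lower of 65, and glutathione transferases 1 and 1 of 34. With single libraries left out, 9 to 21 lectins and 2 to 9 transthyretin-related genes were higher, fewest without control replicate 1, and 3 to 12 UDP-glucuronosyltransferases, fewest without control replicate 2. *ugt-57* had 111, 76.3 and 72.2 in fertile F4 animals and 15.9, 14.3 and 15 in sterile animals, against 17.8, 21.2 and 14.4 in controls. *gst-10*, a glutathione transferase of lipid peroxidation products, had 169.5, 238 and 178 in fertile F4 animals, against 76.8, 91.7 and 75.7 in controls. *asp-13*, an aspartyl protease homolog, had 4111, 3546 and 3435 in fertile F4 animals, against 2069, 2355 and 2062 in controls.

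Genes that differed between starved and fed larvae were looked up in the fed adults. The lists came from the L1 libraries of control animals, starved minus fed, at an adjusted p under 0.05 and a log2 difference of at least 1, and used no adult library. Per the study's methods, starved larvae were collected some hours later after egg harvest than fed ones. Food, age and growth therefore cannot be told apart in these lists. Of 1575 genes raised in starved L1 animals 788 were tested in adults, and 109 were higher and 11 lower in fertile F4 animals (median 0.33). The higher share was 13.8%, against 9.86% of all genes. Of 1857 genes lowered in starved L1 animals 1607 were tested, and 410 were lower and 159 higher (median -0.32). The lower share was 25.5%, against 12% of all genes. At a log2 difference of at least 2 the raised list gave 29 higher and 2 lower (median 0.51), and the lowered list 38 lower and 75 higher (median 0.067), so the direction of the lowered list was not kept among its largest larval changes. With L1 lists from descendants 3 generations on (F4+3), the median was 0.29 over 885 raised genes and -0.33 over 1567 lowered genes, of which 402 were lower and 136 higher. With single libraries left out, 37 to 155 genes of the raised control list were higher and 137 to 695 of the lowered list were lower, in both cases fewest without control replicate 1, and with TMM scaling the counts were 149 and 229, where 13.6% of all genes were higher and 5.70% lower.

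**Figure D5:**
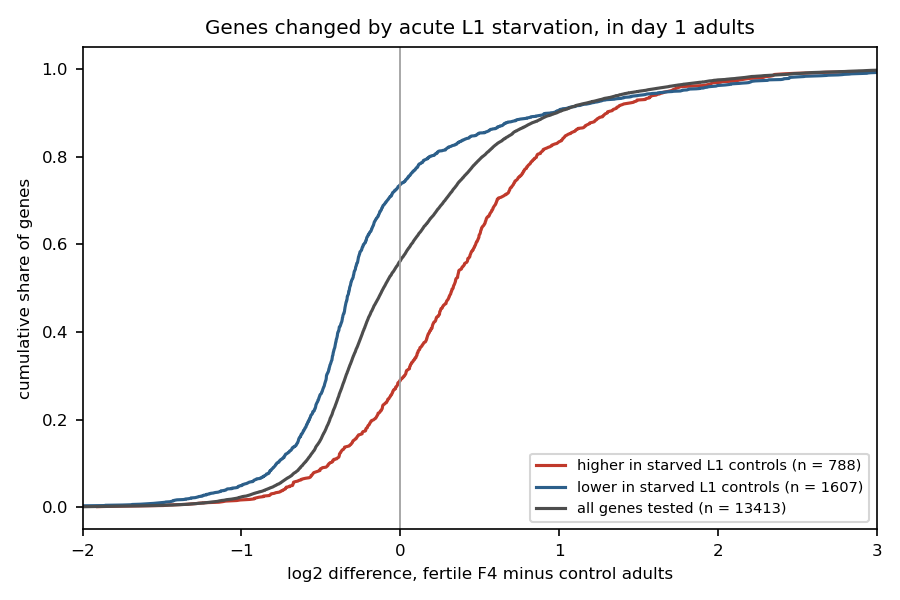
Cumulative share of genes by log2 difference, fertile F4 minus control, for genes raised in starved L1 animals, genes lowered in them and all genes tested. The raised genes (median 0.33) lie to the right of all genes (median -0.11) and the lowered genes (median -0.32) to the left.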

How the data were processed

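Libraries were made by the authors from whole animals with the NuGEN Ovation Universal kit with ribosomal RNA removed by custom primers, and sequenced as single 75-base reads. Per the study's methods, reads were aligned to WS220 with Subread, counted with featureCounts and normalized with DESeq2, with no versions given in the sources used here. The deposited values are normalized counts, a signal of reads divided by a size factor per library, and dividing them by the value of 1 read gave whole reads in 100.0% of cases (tolerance 0.1). Columns of the authors' comparisons (fold changes and p-values, 9 adult and 12 larval) were not used. 3 damaged adult rows and 1 larval row, which names no gene, were left out.

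Genes with a mean of at least 10 over the 9 adult libraries entered limma 3.58.1 (R 4.3.3) with an intensity trend on log2(count + 1), all 9 libraries in 1 fit, Benjamini-Hochberg adjusted p under 0.05. Alternatives were edgeR 4.0.16 and DESeq2 1.42.0 on the recovered reads, TMM or total-read scaling, pseudocounts of 0.5 and 5, no filter or a minimum of 50, no trend, only the 6 libraries compared, replicate blocks, each library left out, and, added after seeing the data, a length correction in 20 bins. Simulated data for this comparison held 13413 genes, of which 66 were changed 4-fold, 67 2-fold and 67 1.5-fold. Of these changes 84.8%, 53.7% and 19.4% were found, with 12 false calls among 117. Far fewer genes changed there than were called in the real libraries, so these rates need not hold for the calls above. Same-numbered fertile and sterile libraries deviated together (correlations 0.38, 0.18 and 0.17), but with 3 libraries a group this cannot decide whether they form pairs. The sterile minus fertile values given here are from the fit without a block. With the replicate block limma called 5234 genes higher and 5318 lower in sterile than in fertile animals, against 5206 and 5313 without it. Exon lengths and names came from WBcel235, which held 17545 of the 17720 identifiers. Its coordinates are not printed because the build differs.

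Named were the reporters *mtl-1* and *sod-3*, the pathway genes *akt-2*, *akt-1*, *daf-16* and *daf-2*, 10 small RNA factors, 5 lipid genes, the 12 highest and 12 lowest called genes (mean at least 50, no overlap), and per list up to 5 called genes of smallest p and 2 of largest change, or the smallest p where none was called. Cell type markers were set beside these, and *alg-1*, *sago-1* and *ppw-1* were chosen after their values were seen. The members and lists were chosen with earlier results of these data known.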

Additional observations from a re-analysis of the deposited data

Results flagged for a closer look

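In 2 of the genes named above, both F4 groups differed from controls by more than 2-fold but in opposite directions, with the difference between them tested in the limma fit (the groups share their controls). *dpy-10*, the furrow collagen, had 446, 459 and 426 normalized counts in fertile F4 animals and 42.5, 34.9 and 66.2 in sterile F4 animals, against 146, 120.5 and 96.6 in controls, and sterile minus fertile was -3.24 ± 0.24 (log2, SE; adjusted p = 3.2e-06). *hch-1*, the hatching protease, had 567, 393 and 378 in fertile F4 animals and 30.6, 22.2 and 54.8 in sterile F4 animals, against 84.3, 93.2 and 89.4 in controls, and sterile minus fertile was -3.67 ± 0.29 (adjusted p = 3.5e-06). Sterile animals carried no eggs, while fertile F4 and control animals both carried more than 5. The source of these transcripts was not tested.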

How the results depend on the processing

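The count of 2936 genes called between fertile F4 animals and controls was 5011 with only the 6 libraries compared, of which 3332 were lower. Genes higher, 1323 as reported, were 2030 with edgeR on recovered reads, and genes lower, 1613 as reported, were 764 with TMM scaling, 885 with edgeR and 896 with limma without a trend. Where libraries were left out in turn, 1005 to 4856 genes were called, 622 to 1696 higher and 383 to 3160 lower, lowest without control replicate 1 and highest without sterile replicate 1. Sterile animals differed from controls in 10538 to 11244 genes and from fertile ones in 9803 to 10408. At a log2 threshold of 2 in larvae, 29 genes of the raised and 38 of the lowered list were called higher and lower in adults.

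Same-numbered fertile and control libraries did not deviate together (correlations -0.29, -0.05 and -0.05). Per the study's methods, controls were collected at the same time as the F4 adults. With 3 libraries a group these correlations cannot decide whether a number stands for a shared replicate. With the replicate block limma called 1346 genes higher and 1639 lower, and edgeR 2030 higher and 932 lower.

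*mtl-1* lay between -0.21 (without fertile replicate 1) and 1.35 with single libraries left out, *nrde-2* between -0.19 and 0.079, and *end-1* between -0.11 (without control replicate 2) and 0.36. *nrde-2* turned to 0.059 with TMM scaling, 0.075 with edgeR and 0.055 with edgeR and the block. *sago-2* turned to 0.0034 with TMM scaling, 0.015 with edgeR, 0.0079 with edgeR and the block and 0.0067 without fertile replicate 1. None of these was called, and the cause was not tested. The share of calls that were higher was 45.1% as reported and 70.4% with TMM scaling. In the simulation most 1.5-fold changes were not found, but far fewer genes changed there than were called here. The search of promoters for DAF-16 elements was not run.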

Other observations

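Gene groups outside the comparisons above are given here for fertile F4 animals against controls, by the same limma fit. Their counts stand against 9.86% higher and 12% lower of all genes. Astacin metalloproteases, which cut collagens and eggshell, were higher in 4 of 18 cases and lower in none (median 0.46). Homeobox genes were higher in 5 of 44 cases and lower in 2. *ceh-34*, a Six-family factor of the pharyngeal nervous system, had 90.6, 75.5 and 75.6 normalized counts in fertile F4 animals, against 21.5, 18.2 and 28.1 in controls, and *ceh-20*, a Pbx homolog, had 468, 382 and 502 in fertile F4 animals, against 255, 231 and 246 in controls. Heterochronic genes, which time larval fates, were higher in 2 of 12 cases, *hbl-1* and *blmp-1*, and lower in 1, *lin-14* (called in 14 of 22 alternatives, not without control replicate 1, 2 or 3 or fertile replicate 1 or 3 or sterile replicate 3, adjusted p 0.004 to 0.15). Nuclear hormone receptors were higher in 12 of 164 cases and lower in 2, with *nhr-11* at 111.6, 109 and 141 in fertile F4 animals, against 37.5, 39.4 and 48.3 in controls. Of the glutamine-rich *abu* and *pqn* genes 6 of 50 were higher and 5 lower.

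Of the lysosome and V-ATPase genes 5 of 39 were higher and 5 lower, and of the lipases and lipid-binding proteins 2 of 19 were higher and 4 lower. Enzymes of glyoxylate, gluconeogenesis and trehalose were higher in 4 of 19 cases and lower in 2, and those of glycolysis in 1 and 2 of 19. Insulin-like peptides were higher in 1 of 15 cases and lower in none, and genes that DAF-16 represses higher in none of 9 and lower in 1. Eggshell genes had no call among 16 (median -0.45), and 14 of them had values that did not overlap, as had 51.1% of all genes. With single libraries left out up to 13 of them were lower. Gonad sheath genes were lower in 1 of 11 cases, apoptosis genes in 3 of 18 and other small RNA factors in 2 of 31, with none higher. The large F-box, MATH and BATH group had 2 higher and 8 lower of 247.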
